A study of Mus musculus with 10 samples.

Results

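Levels of 10 genes that encode RNA-binding regulators of splicing in developing neurons were followed in the embryonic mouse cortex: Elavl2, Elavl3 and Elavl4; Rbfox1, Rbfox2 and Rbfox3; Nova1 and Nova2; and Ptbp1 and Ptbp2. The genes were taken by name, as the paralogs of these 4 families that act in neural differentiation, from the 38803 gene symbols listed for each library. All 10 genes were listed, and 9 of them passed the filter on low values, which 13522 genes of the whole table passed. Rbfox1 did not pass and is described by its levels.

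The libraries were made from total RNA of the dorsal telencephalon, the part of the forebrain that forms the cortex, at embryonic day 12, on a C57/Bl6 - 129 SvJ background. The 5 mutant libraries carried Rnu11Flx/Flx::Emx1-Cre+/-, with both copies of Rnu11 floxed. The 5 control libraries carried Rnu11WT/Flx::Emx1-cre+/-, so that they also had the Cre allele and 1 floxed copy. Emx1-Cre is active in the progenitors of the dorsal telencephalon and their progeny and not in blood, vessel or microglial cells, so a dissected piece keeps cells with an intact Rnu11. Rnu11 encodes the U11 small nuclear RNA, which recognises the 5′ splice site of minor introns. The labels do not say that libraries of a group came from separate embryos, and p-values then measure only the spread between these libraries.

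Elavl proteins of neurons bind AU-rich and U-rich stretches, stabilise messenger RNAs and modulate splicing. Rbfox proteins bind the motif GCAUG, and Nova proteins bind clusters of YCAY, in which Y is a pyrimidine; the position of the site relative to an exon decides whether the exon is included or skipped. Ptbp1 represses neuronal exons in progenitors, including an exon of its paralog Ptbp2, and a hand-over between these proteins accompanies neurogenesis, before Ptbp2 itself declines as neurons mature.

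Because paralogs share sequence, their reads could in principle be exchanged. Coding sequences within a family were identical at 69.6% (Nova1 and Nova2) to 78.1% (Elavl3 and Elavl4) of aligned bases. The longest run of bases shared by the transcripts of any pair was 29, for Elavl3 with Elavl4 and for Rbfox1 with Rbfox2. The following lines show, for 3 families whose members moved apart between libraries, the 75 coding bases within 1 exon where the paralogs were most alike, 5′ to 3′ on the coding strand. They are credited to the GENCODE M21 transcripts of GRCm38, and capitals mark bases that differ within the family. The Elavl windows are chr4:91253309-91253383 (Elavl2), chr9:22018572-22018646 (Elavl3) and chr4:110206401-110206475 (Elavl4), all on the minus strand.
Elavl2: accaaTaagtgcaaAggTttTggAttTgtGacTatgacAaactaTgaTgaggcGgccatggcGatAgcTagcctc
Elavl3: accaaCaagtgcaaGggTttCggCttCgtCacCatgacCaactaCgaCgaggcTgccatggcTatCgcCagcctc
Elavl4: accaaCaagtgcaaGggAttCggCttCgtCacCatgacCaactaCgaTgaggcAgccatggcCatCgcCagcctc
The Nova windows are chr12:46700839-46700913 on the minus strand (Nova1) and chr7:18957596-18957670 on the plus strand (Nova2).
Nova1: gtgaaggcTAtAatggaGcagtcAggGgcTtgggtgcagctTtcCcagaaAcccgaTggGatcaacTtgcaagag
Nova2: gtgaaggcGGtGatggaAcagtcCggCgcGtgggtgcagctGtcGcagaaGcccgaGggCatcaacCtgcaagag
The Ptbp windows are chr10:79859850-79859924 on the plus strand (Ptbp1) and chr3:119740367-119740441 on the minus strand (Ptbp2).
Ptbp1: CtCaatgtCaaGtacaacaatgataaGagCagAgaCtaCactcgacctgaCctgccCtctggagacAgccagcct
Ptbp2: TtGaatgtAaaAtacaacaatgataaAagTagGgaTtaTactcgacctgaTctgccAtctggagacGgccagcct
In these windows 13 of 75 bases differed between the Nova genes and 12 between the Ptbp genes. Among the Elavl genes 15 differed, counting each base at which any of the 3 genes differed. Elavl3 and Elavl4 differed from each other at only a few of these 15, so this pair is the hardest to separate here. The Nova1 window held 53.3% G and C, against 64.0% for Nova2. The Ptbp1 window held 50.7% and the Ptbp2 window 41.3%. How reads that match several paralogs were handled was not given in the sources used here.

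Some facts of the whole series touch these genes. Rnu11 had 712, 473, 511, 1344 and 1421 FPKM (fragments per kilobase of transcript per unit of library size) in mutants 1 to 5, against 2386, 2031, 2817, 1913 and 2266 FPKM in controls 1 to 5, so every mutant library lay below every control library. Apart from genotype, the libraries formed a pair of sets: mutant 4, mutant 5 and control 5 (the second set) had 487 to 688 FPKM of Rnu12, the U12 small nuclear RNA, and the other 7 libraries (the first set, 3 mutants and 4 controls) had 5.91 to 33.8 FPKM. The labels name no such sets and what separates them is not stated. Control 4 stood apart in another way: its 9 marker genes of the ventral telencephalon, such as Dlx and Gad genes, summed to 53.6 FPKM, against 1.45 to 16.0 FPKM in the other 9 libraries. Of the 10 neuron markers, control 4 was the highest control for 6 and the lowest for 2, Neurod2 and Neurod6.

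The rank of the mean FPKM was the same in both groups. Ptbp2 was the highest of the 10 genes, at 151 ± 26.4 FPKM in mutants and 148 ± 33.3 FPKM in controls (SD, n = 5 each). It was followed by Elavl2, Ptbp1, Elavl4, Rbfox2, Elavl3, Nova1, Rbfox3, Nova2 and Rbfox1, the last at 1.08 ± 0.522 FPKM in mutants and 0.566 ± 0.257 FPKM in controls (SD, n = 5 each). In both groups Ptbp2 lay clear of Elavl2, and Elavl3 lay clear of Nova1, with no overlap of the libraries. Ptbp1 lay clear of Elavl4 in mutants but not in controls, and Nova1 lay clear of Rbfox3 in controls but not in mutants. All other neighbours in the order overlapped. The tissue was bulk tissue, so that fewer cells of a type and less RNA per cell cannot be told apart.

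**Figure D1:**
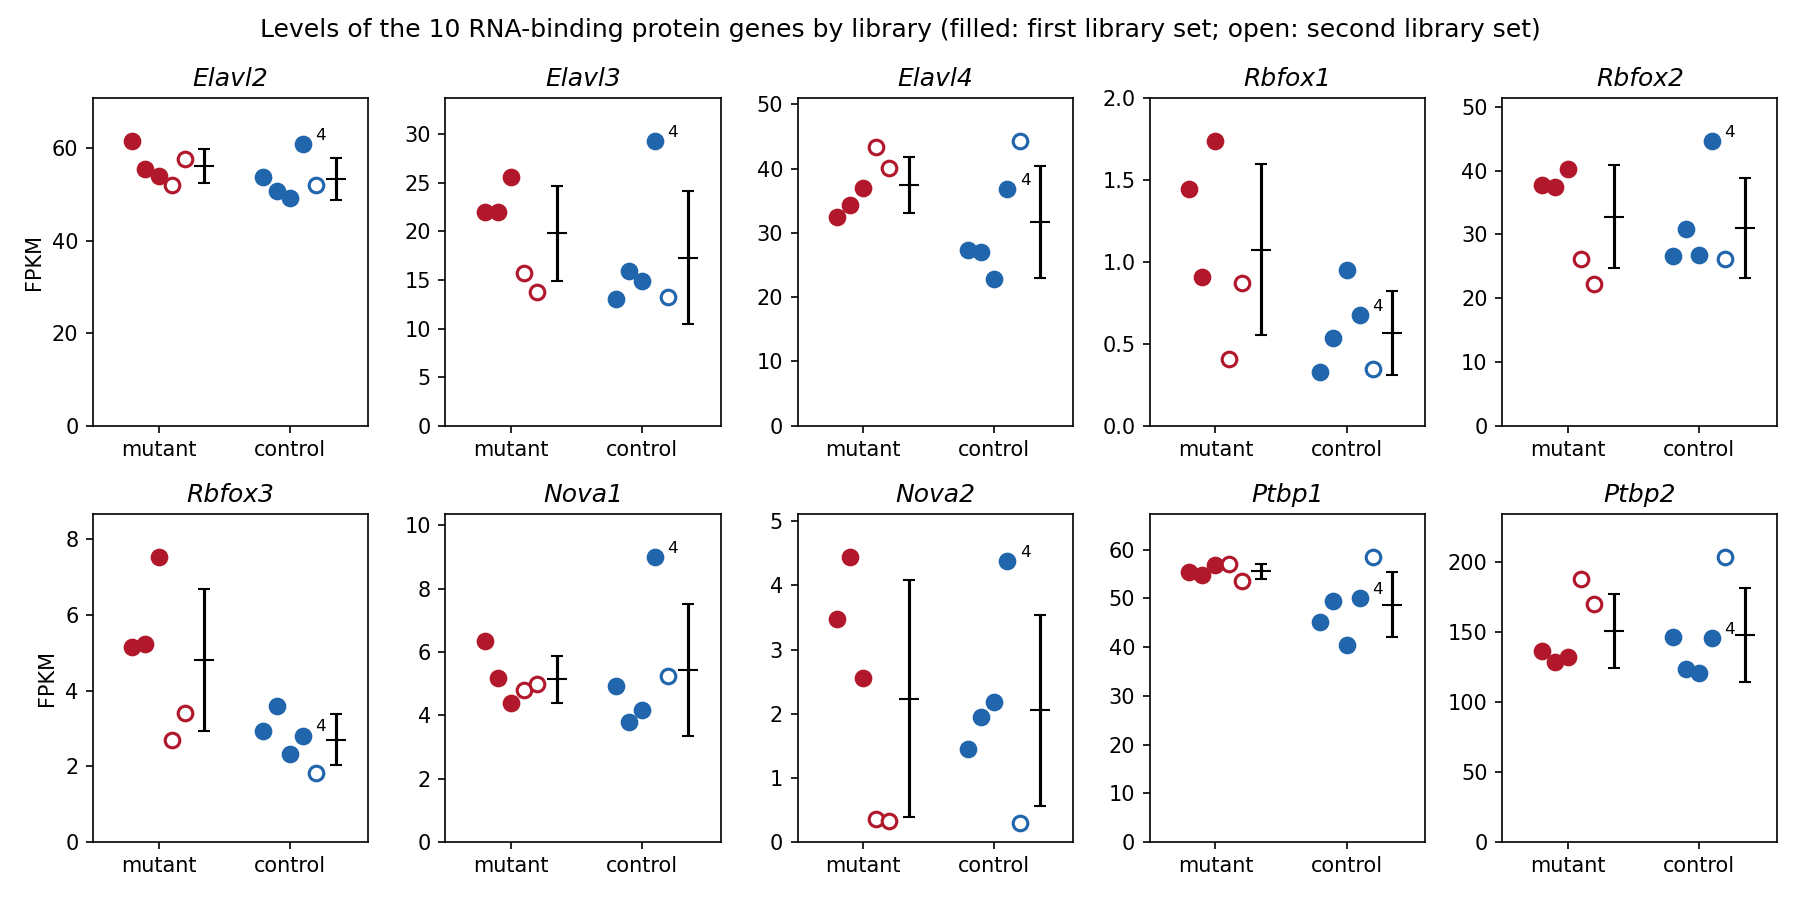
FPKM of the 10 genes in each of the 5 mutant (red) and 5 control (blue) libraries, each panel with its own axis from 0. Filled points are the first library set, open points the second, the bar is the mean ± SD, and the digit marks control 4. The open Nova2 points lie at 0.296 to 0.364 FPKM, below every filled one, and the Rbfox3 mutants of the first set lie above every control.

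Across all 10 libraries the genotype comparison called none of the 9 tested genes. The test was limma on log2(FPKM + 1) with Benjamini-Hochberg adjustment at 0.05 over all 13522 genes, of which 0.155% were called (12 higher and 9 lower in mutants). At an unadjusted p under 0.05 the count was 1 of 9, Rbfox3, against 8.76% of all tested genes. The mutant minus control differences of the 9 genes had a median of 0.08 on the log2 scale, and 7 of 9 were above 0. Over all tested genes the median was 0.11, and 75.7% were above 0. A scaling that equalises the median gene moved this overall shift to 0.00, and Elavl2, Rbfox2 and Ptbp2 then lay slightly below 0.

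Rbfox3, which encodes the neuronal antigen NeuN, showed the widest log2(FPKM + 1) difference of the 9 tested genes. It had 5.14, 5.23, 7.53, 2.69 and 3.42 FPKM in mutants 1 to 5, against 2.94, 3.60, 2.34, 2.81 and 1.82 FPKM in controls 1 to 5. The 3 mutants of the first set were above every control, and the 2 mutants of the second set fell among the controls of the first. Within each set every mutant was above every control, an arrangement that 5.03% of all tested genes showed.

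Rbfox3 averaged 4.80 ± 1.88 FPKM in mutants and 2.70 ± 0.668 FPKM in controls (SD, n = 5 each). The log2 difference was 0.61 (SE 0.21, 95% interval 0.14 to 1.07), with an unadjusted p of 0.0150 and an adjusted p of 0.455 by limma, so it was not called. With library set as a second term the difference was 0.74 (SE 0.14, limma adjusted p = 0.0391), and Rbfox3 was the 1 of 9 genes called as higher in mutants, against 0.547% of all tested genes called in that fit in either direction and 0.325% as higher. Within the first set alone Rbfox3 averaged 5.97 ± 1.36 FPKM in 3 mutants and 2.92 ± 0.523 FPKM in 4 controls (log2 difference 0.82, limma adjusted p = 0.0568). In the second set the 2 mutants averaged 3.05 FPKM and the 1 control had 1.82 FPKM, a log2 difference of 0.52.

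The call on Rbfox3 was found with the set term and not without it. Whether it passed the threshold depended on which libraries were kept, while the size of the difference moved less. With the set term and each library left out in turn, the difference ran from 0.62 to 0.82. Rbfox3 was called without mutant 4, control 4 or control 5 (limma adjusted p = 0.0371 to 0.0380). Without mutant 1, 2, 3 or 5 or control 1, 2 or 3 it was not called (limma adjusted p = 0.0622 to 0.131). With a correction for GC content added to the set term the difference was 0.61 and the limma adjusted p 0.0868.

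Markers of 3 cell classes are set beside the Rbfox3 difference first, and the other marker lists follow. All 10 neuron markers were above 0 in the mutant minus control difference, with a median of 0.37 in the fit on genotype alone and 0.46 with the set term, and limma called none in either fit. On genotype alone 3 of 10 had an unadjusted p under 0.05, against 8.76% of all tested genes, of which 75.7% were above 0. Their summed level ran from 356 to 553 FPKM in mutants and from 296 to 445 FPKM in controls. All 7 markers of intermediate progenitors, the cells that divide once more to give neurons, were above 0, with a median of 0.20 and 0.28 with the set term. None was called, 3 of 7 had an unadjusted p under 0.05, and their sum was 98.5 to 110 FPKM in mutants and 81.2 to 104 FPKM in controls. All 5 microglia markers were above 0, with a median of 0.55 and of 0.70 with the set term, where limma called 1 of 5, C1qa, as higher in mutants. They summed to 14.7 to 45.7 FPKM in mutants and 9.37 to 21.8 FPKM in controls. On genotype alone 2 of these 5 microglia markers had an unadjusted p under 0.05. Most other marker lists also lay above 0 on genotype alone, and limma called no gene of them in either fit. Radial glia had 10 of 10 tested genes above 0 (median 0.15), and endothelium 5 of 5 (0.17). Erythroid cells had 4 of 5 (0.41), mesenchyme and meninges 5 of 6 (0.23) and Cajal-Retzius cells 3 of 5 (0.06). Choroid plexus and hem had 1 of 4 (-0.09), and ventral telencephalon 1 of 1 (0.12). Among these other lists, 2 of 10 radial glia genes had an unadjusted p under 0.05 on genotype alone, and no gene of the rest did. The part of any of these cells in the Rbfox3 difference was not tested.

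Rbfox2 was the main Rbfox transcript of this tissue. It had 37.8, 37.4, 40.3, 26.1 and 22.2 FPKM in mutants 1 to 5, against 26.7, 30.8, 26.8, 44.7 and 26.2 FPKM in controls 1 to 5. Control 4 was the highest library of all, and the 3 libraries of the second set were the lowest. The log2 difference between genotypes was 0.07 (95% interval -0.35 to 0.49, limma adjusted p = 0.932). In the first set the 3 mutants were above every control but control 4.

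Rbfox1, a regulator of exons of synaptic and channel genes in mature neurons, was near the detection level. It had 1.44, 0.911, 1.74, 0.410 and 0.870 FPKM in mutants 1 to 5, against 0.327, 0.535, 0.949, 0.674 and 0.347 FPKM in controls 1 to 5. The groups overlapped, with 2 mutants above every control, and these levels stood for roughly 11 to 71 fragments per library. Of the summed Rbfox FPKM, Rbfox3 made up 12.2 ± 2.17% in mutants and 8.03 ± 1.99% in controls, and Rbfox2 made up 85.1 ± 2.96% in mutants and 90.3 ± 2.11% in controls (SD, n = 5 each). These shares were not tested.

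**Figure D2:**
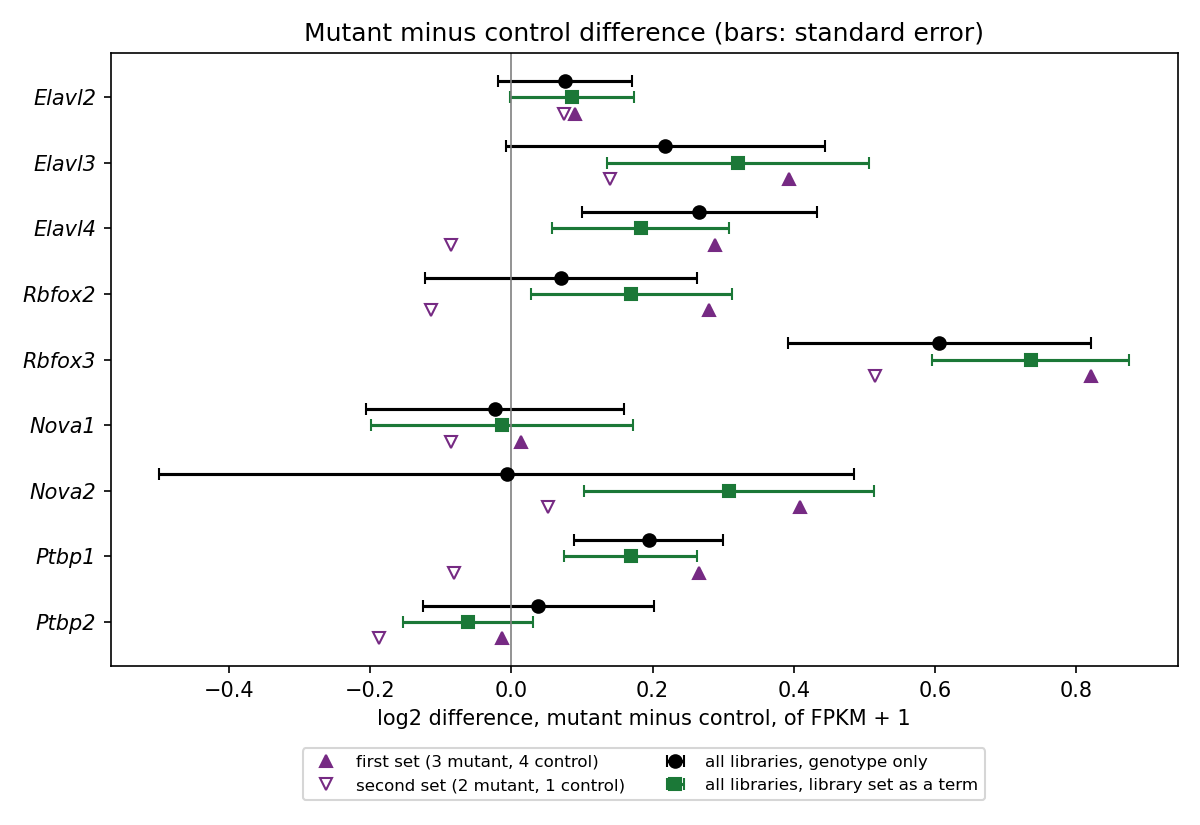
Mutant minus control difference of log2(FPKM + 1) for the 9 tested genes, with standard error bars for the fit on genotype alone (black) and with library set as a term (green), and the plain difference within each set (triangles). Rbfox3 lies farthest to the right in both fits, at 0.61 and 0.74, and the bar of Nova2 shortens when the set is a term.

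Among the Elavl genes, Elavl2 was the most even. It had 61.6, 55.6, 53.9, 52.0 and 57.7 FPKM in mutants 1 to 5, against 53.8, 50.8, 49.2, 60.9 and 52.0 FPKM in controls 1 to 5, and the groups overlapped over most of their range. The log2 difference was 0.08 (95% interval -0.13 to 0.28, limma adjusted p = 0.831). Elavl2, which also has a role in germ cells, made up 49.5 ± 2.98% of the summed Elavl FPKM in mutants and 52.6 ± 4.67% in controls (SD, n = 5 each).

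Elavl3, a pan-neuronal member known as HuC, had 21.9, 22.0, 25.6, 15.7 and 13.8 FPKM in mutants 1 to 5, against 13.0, 15.9, 14.9, 29.3 and 13.3 FPKM in controls 1 to 5. Control 4 was the highest library, at 2.06 times the mean of the other controls, and the mutants of the first set came next. This gave a log2 difference of 0.22 (95% interval -0.27 to 0.71, limma adjusted p = 0.791).

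Elavl4, known as HuD and a stabiliser of Gap43 messenger RNA, had 32.4, 34.4, 37.0, 43.3 and 40.2 FPKM in mutants 1 to 5, against 27.4, 27.1, 22.9, 36.8 and 44.3 FPKM in controls 1 to 5. Controls 1, 2 and 3 lay below every mutant, and control 5 lay above every mutant. Its log2 difference was 0.27 (95% interval -0.10 to 0.63, limma adjusted p = 0.655). The 3 Elavl genes together summed to 111 to 117 FPKM in mutants and 87.0 to 127 FPKM in controls.

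The Nova genes differed between groups by less than their spread. Nova1, which acts on splicing in the hindbrain and spinal cord, had 6.34, 5.19, 4.37, 4.79 and 4.98 FPKM in mutants 1 to 5, against 4.92, 3.79, 4.18, 8.998 and 5.24 FPKM in controls 1 to 5. All libraries but control 4 lay between 3.79 and 6.34 FPKM. For Nova1 the log2 difference was -0.02 (95% interval -0.42 to 0.37, limma adjusted p = 0.980).

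Nova2, the cortical Nova whose target exons include one of Dab1 in migrating neurons, had 3.48, 4.44, 2.56, 0.364 and 0.323 FPKM in mutants 1 to 5, against 1.45, 1.94, 2.18, 4.39 and 0.296 FPKM in controls 1 to 5. The 3 libraries of the second set were the lowest whatever their genotype, and control 4 was near the highest mutant. The log2 difference was -0.01 with a 95% interval from -1.10 to 1.09 (limma adjusted p = 0.998), the widest interval of the 9 genes. With library set as a term it was 0.31 (SE 0.21, limma adjusted p = 0.549).

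Ptbp1 had 55.5, 54.7, 56.9, 57.1 and 53.5 FPKM in mutants 1 to 5, against 45.1, 49.5, 40.5, 50.1 and 58.5 FPKM in controls 1 to 5. The mutants lay within a span of a few FPKM, with 4 of 5 controls below every mutant and control 5 above every mutant. In the first set all mutants were above all controls, as for 16.7% of all tested genes. Ptbp1 averaged 55.5 ± 1.51 FPKM in mutants and 48.7 ± 6.68 FPKM in controls (SD, n = 5 each), a log2 difference of 0.19 (95% interval -0.03 to 0.42, limma adjusted p = 0.617). Summed markers of radial glia, the progenitors in which Ptbp1 is known to act, were 745 to 810 FPKM in mutants and 607 to 787 FPKM in controls, and their part in the Ptbp1 values was not tested.

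Ptbp2 had 137, 128, 132, 188 and 170 FPKM in mutants 1 to 5, against 146, 123, 121, 146 and 203 FPKM in controls 1 to 5. The 3 highest libraries were those of the second set, and within the first set the groups overlapped. For Ptbp2 the log2 difference was 0.04 (95% interval -0.32 to 0.39, limma adjusted p = 0.958). The ratio of Ptbp2 to Ptbp1 was 2.72 ± 0.474 in mutants and 3.02 ± 0.370 in controls (SD, n = 5 each), with overlap, and was not tested.

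Whether the difference between genotypes itself differed between the library sets was asked with an interaction term. limma called none of the 9 genes and none of the 13522 genes for it. At an unadjusted p under 0.05 it found 0 of the 9 genes and 9.07% of all tested genes. The second set holds 1 control, so this comparison has little precision.

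Several of the 10 genes differed between the library sets whatever the genotype. Set against set, with genotype in the fit, limma called 4 of the 8 genes that reached the filter in both sets, against 20.8% of all tested genes. Rbfox3 and Rbfox2 were lower in the second set, as 7.48% of all tested genes were, and Ptbp2 and Elavl4 were higher, as 13.3% were. Nova2 is counted apart, because it reached 1 FPKM in no library of the second set and so passed the filter through the first set, where it is high. Nova2 had 0.296 to 0.364 FPKM in mutant 4, mutant 5 and control 5, against 1.45 to 4.44 FPKM in the other 7 libraries, a log2 difference of -1.58. With no filter on low values, over 26845 genes of which 7.8% were called between the sets, Nova2 had the same difference (SE 0.23) and a limma adjusted p of 0.00483. In that fit Rbfox3 and Ptbp2 were also called (limma adjusted p = 0.0306 and 0.0133), and Elavl4 and Rbfox2 were not (0.109 and 0.0982). At these levels Nova2 stood for roughly 36 fragments in control 5.

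Ptbp2 ran from 170 to 203 FPKM in the second set, with 121 to 146 FPKM across the first (log2 difference 0.50, limma adjusted p = 0.0051). Elavl4 ran from 40.2 to 44.3 FPKM in the second set, with 22.9 to 37.0 FPKM across the first (log2 difference 0.41, limma adjusted p = 0.0488). Rbfox2 ran from 22.2 to 26.2 FPKM in the second set, with 26.7 to 44.7 FPKM across the first (log2 difference -0.50, limma adjusted p = 0.0396). Leaving out mutant 4 or control 5 left 2 of the 9 tested genes called, Nova2 counted among the 9, and leaving out mutant 1, 2, 3 or 5 or control 2 left 3. The share of all tested genes called with a library left out was not counted. For Ptbp2, Elavl4 and Rbfox2, 3 of the 8 genes, the sets did not overlap, against 21.8% of all tested genes.

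Rbfox3 overlapped between the sets and differed by -0.65 on the log2 scale, second minus first (limma adjusted p = 0.0110). Elavl3 differed by -0.52, Ptbp1 by 0.13, Elavl2 by -0.05 and Nova1 by -0.05, none of them called, with limma adjusted p from 0.0907 to 0.895. The ratio of Nova1 to Nova2 was 13.2 to 17.7 in the second set, with 1.17 to 3.38 across the first.

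**Figure D3:**
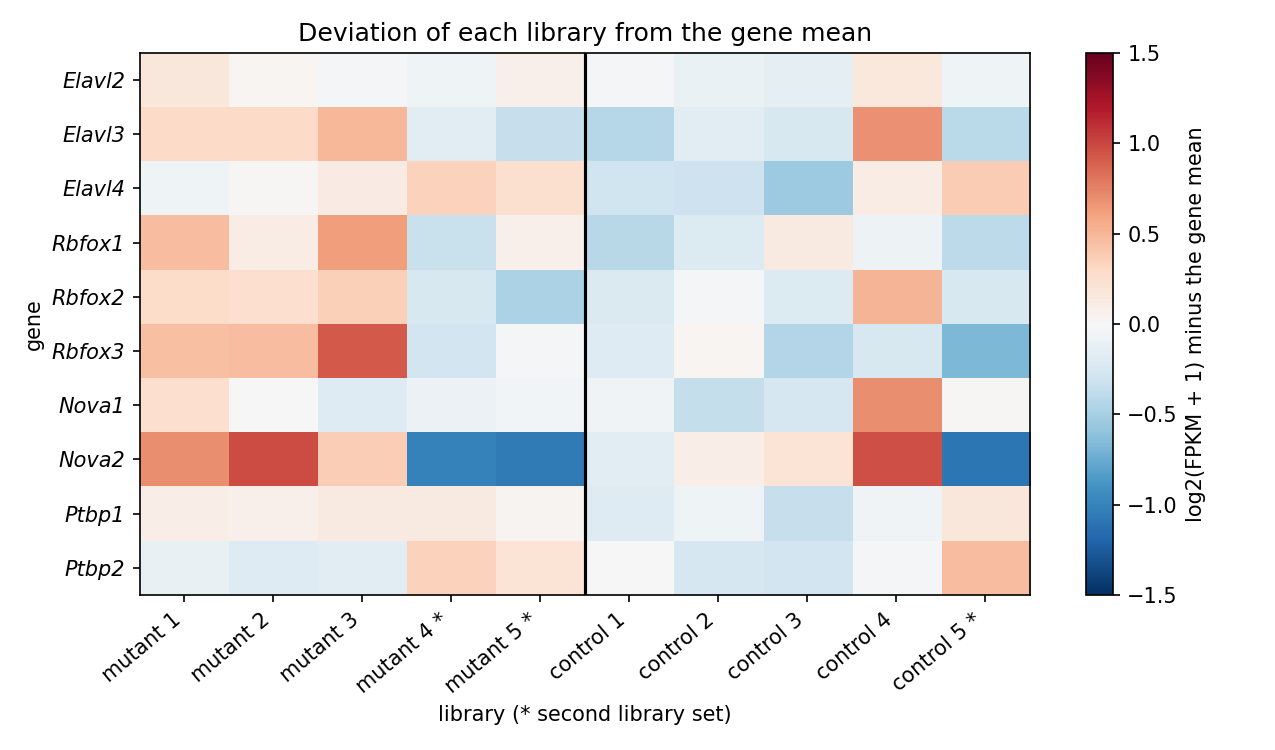
Deviation of log2(FPKM + 1) in each library from the gene's mean over the 10 libraries, mutants left of the line and controls right of it, with asterisks for the second library set. The 3 starred columns are the bluest for Nova2 and the reddest for Ptbp2 and Elavl4, and control 4 is red for Elavl3, Rbfox2, Nova1 and Nova2.

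GC content of the transcript moved with the difference between sets. Tested protein-coding genes with at most 40% G and C had a median difference of 0.28 on the log2 scale, second minus first, and those with over 60% had -0.21. Rbfox3 and Rbfox2, called as lower in the second set, have 58.6% and 51.5% G and C, and Nova2 has 56.3%. Elavl4 and Ptbp2, called as higher, have 38.9% and 43.1%, against a median of 49.9% over the tested protein-coding genes. Tested protein-coding genes with over 50% and at most 55%, the class that holds Rbfox2, had a median difference of -0.02. Of the genes not called, Elavl2 and Nova1, with 38.5% each, differed by -0.05, Ptbp1, with 53.7%, by 0.13 and Elavl3, with 54.1%, by -0.52. After a GC correction fitted to all genes in each library, Rbfox2 differed by -0.50, Rbfox3 by -0.49 and Ptbp2 by 0.29, all called by limma, and Nova2, described without a test here, by -1.47. Elavl4 then differed by 0.13 (limma adjusted p = 0.425) and was no longer called, while Elavl2, by -0.33, was (limma adjusted p = 0.00869). The corrected fit called 4 of these 8 genes, against 22.7% of all tested genes.

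**Figure D4:**
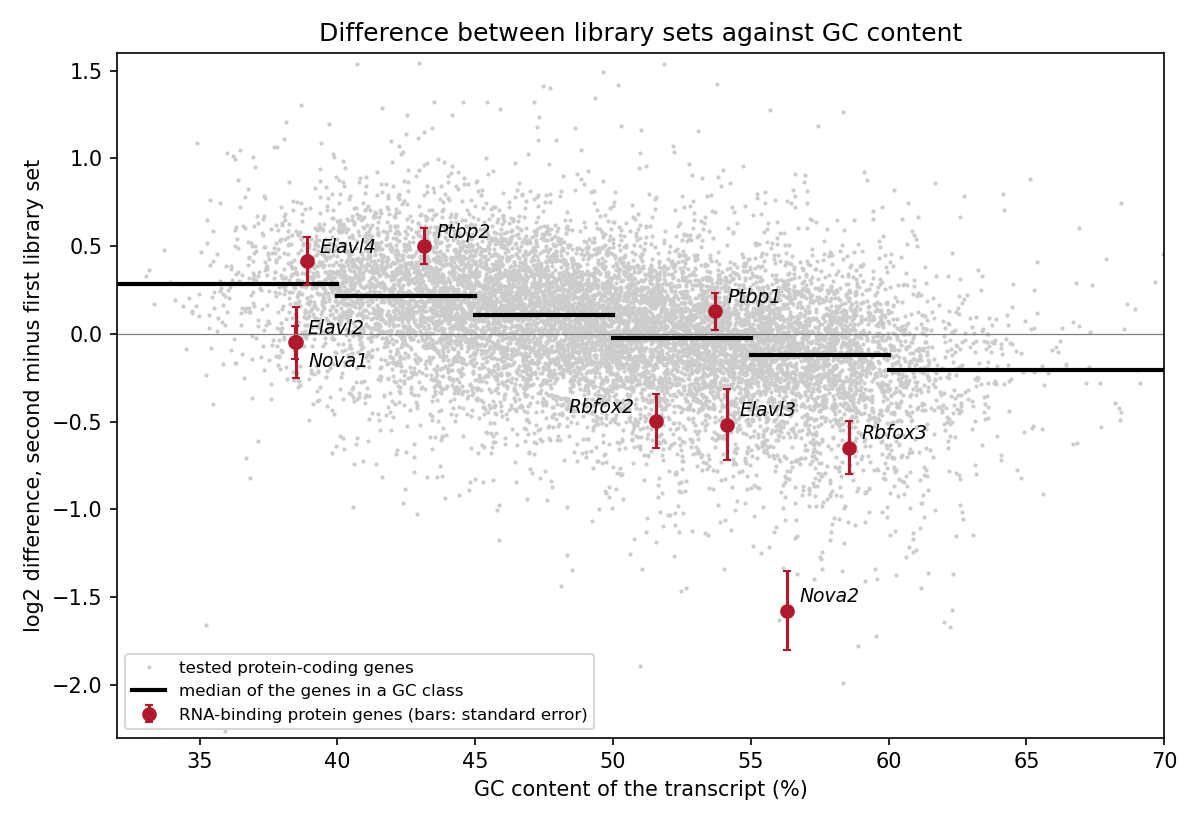
Difference of log2(FPKM + 1) between the second and the first library set against the GC content of the transcript, for tested protein-coding genes (grey) and the 9 RNA-binding protein genes (red, bars are standard errors). The black lines, medians of a GC class, step down from 0.28 to -0.21, and Nova2 lies far below its class at -1.58.

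Control 4 was the highest control for 5 of the 10 genes, namely Elavl2, Elavl3, Rbfox2, Nova1 and Nova2. It was also the highest control for 13 of 19 other neural RNA-binding proteins and the lowest for 1 of them. It stood at 2.99 times the mean of the other controls for Nova2, 2.06 times for Elavl3, 1.99 times for Nova1 and 1.62 times for Rbfox2, but at 1.05 times for Rbfox3, 1.04 times for Ptbp1 and 0.98 times for Ptbp2. Its summed neuron markers, 445 FPKM, were the highest of the controls, and its ventral markers the highest of all libraries. Control 4 was also the highest control for 5 of 5 Cajal-Retzius markers. For 4 of 6 erythroid markers and 4 of 6 markers of mesenchyme and meninges it was the lowest control. The part of these cells in the levels was not tested, and the share of all tested genes with control 4 highest was not counted. Without control 4, and with the set as a term, Rbfox3 remained called (limma adjusted p = 0.0372) and none of the other 8 genes was. That fit called 143 of all 13522 tested genes. Elavl3 came nearest of the other 8, with a log2 difference of 0.48 (SE 0.12, limma adjusted p = 0.0685). With control 4 kept, its difference in the fit with the set term was 0.32 (limma adjusted p = 0.490).

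Other genes of the same regulatory circuits were compared in the fit on genotype alone, and limma called none of the 40 that were tested (3 at an unadjusted p under 0.05). Of all tested genes 0.155% were called and 8.76% had such a p. Counts above 0 in these lists stand beside the 75.7% of all tested genes that were above 0. Of 19 other neural RNA-binding proteins 17 were tested, and 14 of them were above 0 with a median of 0.19 on the log2 scale. Khdrbs3, which acts on neurexin exons, averaged 20.5 ± 3.16 FPKM in mutants and 15.2 ± 3.36 FPKM in controls (SD, n = 5 each), a log2 difference of 0.41 (limma adjusted p = 0.463). Mbnl2, a muscleblind protein of brain, averaged 4.18 ± 0.392 FPKM in mutants and 3.22 ± 0.823 FPKM in controls (log2 difference 0.31, limma adjusted p = 0.546).

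Of 10 cofactors that bind these regulators or share their complexes, 9 were above 0 with a median of 0.10. Ilf2, a protein of double-stranded RNA-binding complexes, averaged 65.6 ± 4.74 FPKM in mutants and 60.1 ± 6.45 FPKM in controls (SD, n = 5 each), a log2 difference of 0.13. In the set comparison 5 cofactors were higher in the second set and 1 was lower, beside the 20.8% called over all genes, and Hnrnph1 differed by 1.00. Of 5 genes of the REST repressor and its partners, which hold neuronal genes down outside neurons, 4 were above 0 with a median of 0.18. Rcor1, a corepressor, differed by 0.20 and Ctdspl, a phosphatase, by 0.22.

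Of 9 genes known as targets of these proteins 8 were tested, and all 8 were above 0 with a median of 0.23, against 0.11 for all tested genes. Gap43, a growth cone protein and an Elavl4 target, averaged 40.2 ± 5.45 FPKM in mutants and 27.2 ± 6.85 FPKM in controls (SD, n = 5 each), with 1 control, control 4, among the mutants. Its log2 difference was 0.57 (unadjusted p = 0.00398, limma adjusted p = 0.333), so it was not called. Dab1, a Nova2 target in the reelin pathway, averaged 11.7 ± 0.638 FPKM in mutants and 9.62 ± 2.02 FPKM in controls (log2 difference 0.28, limma adjusted p = 0.583). FPKM values are totals of a gene and do not tell which exons its transcripts include.

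**Figure D5:**
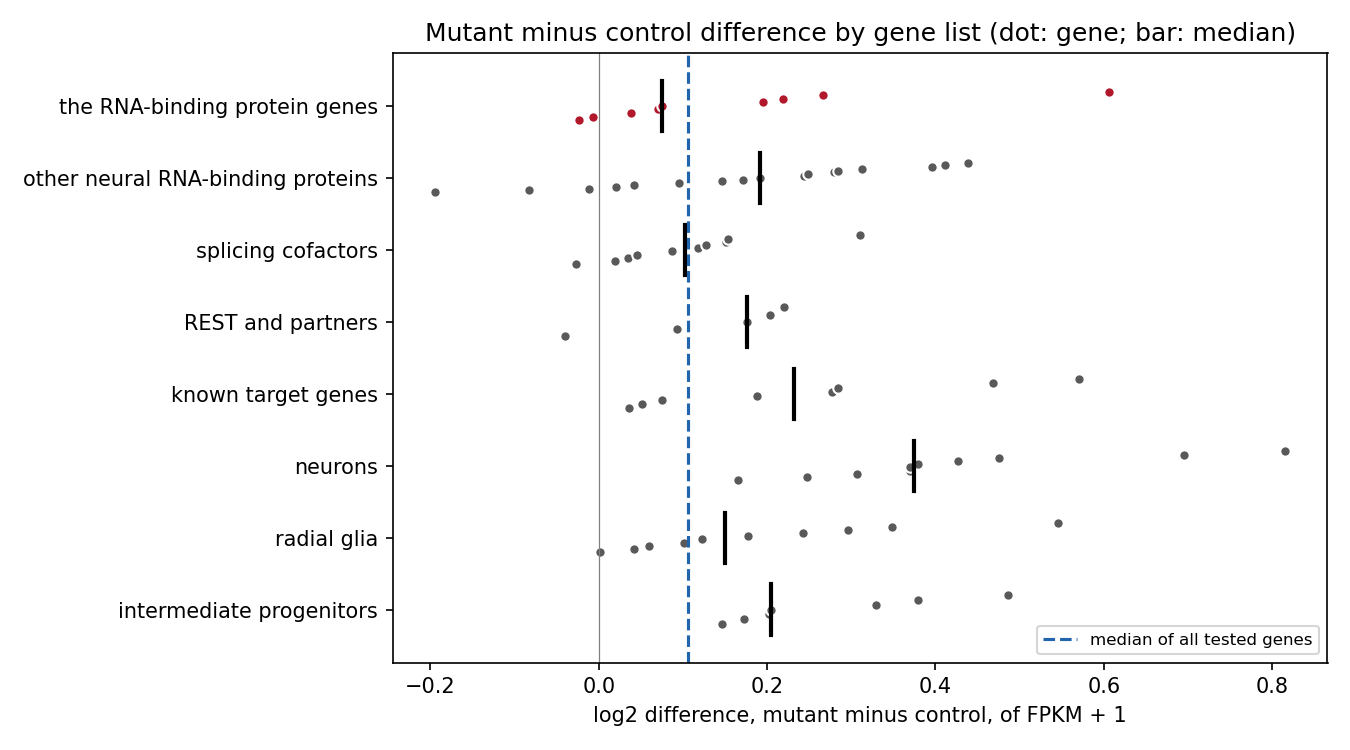
Mutant minus control difference of log2(FPKM + 1) for each tested gene (dots) of the 9 RNA-binding protein genes (red) and of 7 other gene lists, with each list's median (bar) and the median of all tested genes (dashed, 0.11). The RNA-binding protein genes have a median of 0.08 with Rbfox3 alone at the right, and the neuron markers have a median of 0.37.

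The gene with the most similar profile over the 10 libraries was sought for each tested gene among 11542 protein-coding genes, as the smallest root mean square difference of standardised log2(FPKM + 1) values. The closest match was that of Ptbp2 with Cacybp, at 0.111. Elavl3 was nearest to Tcta (0.157), Rbfox2 to Efr3b (0.163), Nova2 to Mast3 (0.166), Elavl4 to Snrnp70 (0.171) and Ptbp1 to Tnfaip8 (0.178). Rbfox3 was nearest to Rgs3 (0.297), Nova1 to Tmed8 (0.326) and Elavl2 to Adam23 (0.351), matches that were looser. None of the 9 had another of the 10 genes as its nearest, and the closest pair among them was Elavl3 with Rbfox2, at 0.303.

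In the GRCm38 annotation, the spans of 6 of the 10 genes (Elavl2, Rbfox2, Rbfox3, Nova2, Ptbp1 and Ptbp2) overlap a gene on the opposite strand. Their values are uncertain to that extent, since no source used here says whether counting used strand. Plppr3, which is protein-coding and opposite Ptbp1, was not matched in the lists. 1700109K24Rik, antisense to Rbfox2, averaged 3.55 FPKM in mutants and 2.79 FPKM in controls. E130317F20Rik, opposite Ptbp1, averaged 5.05 FPKM in mutants and 4.54 FPKM in controls. Gm26821, opposite Nova2, averaged 0.465 FPKM in mutants and 0.624 FPKM in controls over both library sets. Its level in the second set alone is not given here.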

How the data were processed

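The values are FPKM as the authors deposited them, 1 text list for each library. The submitters' processing notes name HISAT2 and GRCm38 (mm10). The program and annotation that gave FPKM were not given in the sources used here. Per the labels' protocols, Trizol RNA was depleted of ribosomal RNA with Ribo-Zero and made into stranded libraries. Depth is not stated; from the step 1 fragment adds to low values it was roughly estimated at 9700000 to 21200000 fragments per library, so no counting intervals are given. The number of genes with at least 1 FPKM was 13092 to 14229.

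Genes that reached 1 FPKM in 5 or more libraries were tested as log2(FPKM + 1), which understates changes of low genes, with limma 3.58.1 (trend and robust moderation) in R 4.3.3. P-values were adjusted by Benjamini-Hochberg over 13522 genes, at a threshold of 0.05. Tables and plots used Python 3.11.15, pandas 2.3.3 and matplotlib 3.10.9. The fit on genotype alone was tested on simulated data without library sets. The fits with a set term, an interaction or a GC correction were not tested in this way. Library sets were split at 100 FPKM of Rnu12. Of 38803 symbols, 35655 matched GENCODE M21 by name, 1765 by an older name and 1383 not at all.

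The 10 genes, the other gene lists and the library sets were chosen with earlier results of these data known. All 10 genes are named; from each list of regulators, cofactors, REST partners and targets the 2 genes with the smallest p are named, since none passed (1 of them is not reported here); and for each tested gene the protein-coding gene with the nearest profile is named. Hnrnph1, the markers in the text and the opposite-strand genes lie outside this rule and were named after their values were seen. Same-numbered libraries did not deviate together in every pair (correlations from -0.11 to 0.52), so the numbers were not taken as pairs. Alternatives were another pseudocount, filter, scaling and moderation, a set term, 1 set alone, a replicate block, a GC correction and each library left out.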

Additional observations from a re-analysis of the deposited data

Results flagged for a closer look

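In 4 of the 24 groups of 5 values examined (10 genes and 2 family ratios, in each genotype), 1 library lay far from the others of its group, by the gap to its nearest neighbour relative to the whole range. Chance alone flags about 1 in 20 such groups if they are independent and their values normal. The 24 groups share libraries, and every flag but that of the ratio fell on control 4. The 4 flags can therefore not be set against that rate. Elavl3 had 29.3 FPKM in control 4, against 13.0 to 15.9 FPKM in the other controls. Rbfox2 had 44.7 FPKM in control 4, against 26.2 to 30.8 FPKM in the other controls. Nova1 had 8.998 FPKM in control 4, against 3.79 to 5.24 FPKM in the other controls. The ratio of Nova1 to Nova2 was 17.7 in control 5, the single control of the second library set, against 1.91 to 3.38 in the other controls.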

How the results depend on the processing

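The fit as reported tested 9 of the 10 genes. All 10 were tested with no filter and 6 with at least 5 FPKM required, where Rbfox3, Nova1 and Nova2 also dropped out. The genotype comparison called 0 in the fit as reported and under every alternative without the library set term. With that term it called 1 (Rbfox3), also without control 4, mutant 4 or control 5, but 0 without any other single library and 0 with a GC correction added; leaving out any 1 library without the term gave 0. The number of all genes called was 21 as reported, 2 with no filter, 35 after quantile normalization, 11 without trend and robust moderation, 74 with the library set term, 101 in the first set only, 45 with a GC correction, 98 with set term and GC correction and 143 with the set term and without control 4; leaving out 1 library gave 2 to 79 on genotype alone and 25 to 202 with the set term, each highest without control 5. Of the 21, the split was 12 higher and 9 lower; after quantile normalization it was 13 and 22, with a GC correction 16 and 29, with median-ratio rescaling 11 and 19. The replicate block, which rests on numbers that do not pair the libraries (3 of 5 mutants correlated best with their own number), called 14 genes and 0 of the 9, with Rbfox3 at a limma adjusted p of 0.334. Between library sets 4 of the 8 genes that reached the filter in both sets were called. With Nova2, which passed the filter only through the first set, where it is high, the count was 5 of 9. The counts that follow include Nova2 wherever it was tested. The count was 3 of 10 with no filter, 3 of 6 with at least 5 FPKM required and 3 of 9 without trend and robust moderation. Leaving out 1 library gave 2 to 6 of 9. It was 2 without mutant 4 or control 5, 3 without mutant 1, 2, 3 or 5 or control 2, and 6 without control 4. Differences near 0 changed sign. Elavl2 was -0.046 under median-ratio rescaling and -0.027 with a GC correction. Rbfox2 was -0.049, -0.0077 and -0.042 under median-ratio rescaling, quantile normalization and GC correction, and with 1 library left out -0.012 to 0.21 on genotype alone and 0.10 to 0.28 with the set term. Nova1 was 0.014 in the first set only, 0.14 with the set term and without control 4, and -0.12 to 0.15 with 1 library left out. Nova2 was 0.31 with the set term, 0.41 in the first set only, 0.19 with set term and GC correction and 0.46 with the set term and without control 4; with 1 library left out it was -0.28 to 0.26 on genotype alone and 0.19 to 0.46 with the set term. Ptbp2 was -0.084 under median-ratio rescaling, -0.038 under quantile normalization, -0.062 with the set term, -0.013 in the first set only, -0.071 with a GC correction, -0.13 with set term and GC correction, -0.037 with the set term and without control 4, and with 1 library left out -0.044 to 0.16 on genotype alone and -0.100 to -0.013 with the set term. Rbfox1, untested, differed by 0.38 and by 0.77 with a pseudocount of 0.1 FPKM. Elavl3, Elavl4, Rbfox3 and Ptbp1 kept a difference above 0 in every setting run. The second set alone, with its 1 control, was not run as a setting. There the plain difference was -0.086 for Elavl4 and -0.081 for Ptbp1, and above 0 for Elavl3 and Rbfox3. The cause of these changes was not tested. The GC corrections, the set term with a library left out and the comparison of library sets were chosen after seeing the data. Rbfox1 has no value under quantile normalization or GC correction, and no interaction could be fitted for the first set only or without control 5. Depth limits Rbfox1, Nova2 and Rbfox3 most, at roughly 11, 36 and 84 fragments in their lowest libraries.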
